A study of Rattus norvegicus with 6 samples.

Results

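The genes described here are 42 genes of fatty acid oxidation and the peroxisome: the enzymes of mitochondrial and peroxisomal beta-oxidation, proteins of fatty acid uptake and activation, ketone and fuel-switch enzymes, and peroxins. They were chosen by name, with earlier results of these data known. A probe was counted as theirs when its transcript accession mapped to 1 of the 42 symbols. All 42 were on the array, with 72 probes among 28193 probes of 15639 named genes, and all 72 probes passed the filter on dim probes. RNA of the renal cortex was hybridised to 1-colour Agilent arrays, 1 array for each male Sprague-Dawley (Crl:CD(SD)) rat. The TBBC group was 3 rats given 300 mg/kg/day of the 4,4' form of thiobis(6-tert-butyl-m-cresol), a phenolic antioxidant whose rings are joined by sulfur, and the vehicle group was 3 rats given corn oil. Both groups were treated for 4 weeks, ate a basal diet, and came from animals purchased at 5 weeks of age. The replicates were biological, per the series' design text. The question was which transcripts of these pathways differed between TBBC-treated and vehicle-treated cortex, and whether the mitochondrial and the peroxisomal genes did so alike.

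Fatty acids are taken up by the cell, bound by small carrier proteins and activated to acyl-CoA. Long chains then enter mitochondria through the carnitine shuttle and are shortened by rounds of dehydrogenation, hydration, oxidation and thiolytic cleavage. Very long and branched chains are first shortened in peroxisomes, by a separate set of enzymes that peroxins import. Proximal tubule cells, which fill most of the renal cortex, depend on fatty acids for much of their ATP, and many of the genes are targets of the peroxisome proliferator-activated receptors (PPARs).

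A value below called a log2 signal is the log2 of the processed signal over the array's 75th percentile, so that 0 lies at that percentile. Each gene is represented by its brightest probe, and log2 signals of different genes are not comparable, since probes differ in brightness. That percentile was lowest in TBBC 2 (861) and highest in vehicle 3 (1038), and 67.1% to 70.9% of probes lay well above background. The arrays of TBBC 1 and of the 3 vehicle rats shared slide 1, and those of TBBC 2 and TBBC 3 were on slide 2. The 2 slides were scanned on different days, so slide and scan day cannot be told apart. The array number limits the precision.

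None of the 42 genes passed the threshold of an adjusted p of 0.05 in limma, with adjustment over all 32962 transcripts tested. Of all transcripts, 175 passed (0.531%), 84 higher (0.255%) and 91 lower (0.276%) in TBBC cortex. At an unadjusted p under 0.05 there were 19 of the 42 genes (45.2%), against 20.0% of all transcripts. Of these 19, 6 were higher in TBBC, against a background of 9.54%, and 13 were lower, against 10.4%. The 3 TBBC values lay wholly outside the 3 vehicle values for 21 genes (50%), against 28.3% of all transcripts. They lay above all vehicle values for 7 genes (background 13.1%) and below them for 14 (background 15.2%).

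The share of non-overlapping genes among the 42 lay above that of all transcripts, and the differences were mostly small. That share is a description with no test of its own, since the genes were chosen with earlier results known. Their median log2 fold change, TBBC over vehicle, was -0.15, against -0.02 over all transcripts, and their median absolute log2 fold change was 0.31, against 0.20. Only Fabp1 and Fabp3, 4.76% of the genes, differed at least 2-fold, against 3.80% of all transcripts. The median standard deviation of a gene among the 42 was 0.19 on the log2 scale in TBBC rats and 0.13 in vehicle rats, against 0.23 and 0.13 over all transcripts. In whole cortex, fewer cells of a type and less RNA per cell cannot be told apart.

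**Figure D1:**
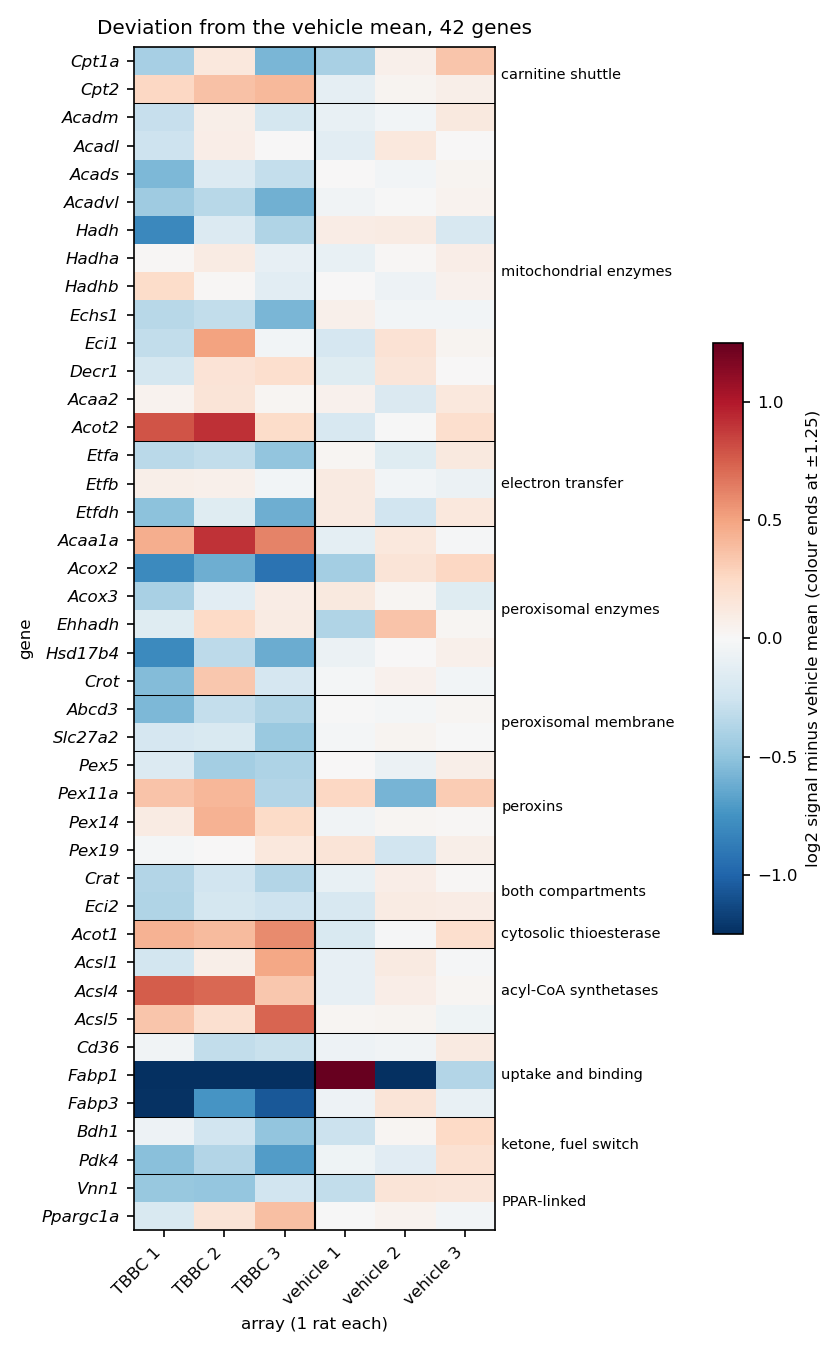
Log2 signal minus the vehicle mean of each gene (colour) for the 42 genes (rows, grouped by role) on the TBBC and vehicle arrays (columns, 1 rat each). Fabp3 is blue in all 3 TBBC rats, Acot1, Acsl4 and Acsl5 are red in all 3, and Fabp1 varies among the vehicle rats.

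**Figure D2:**
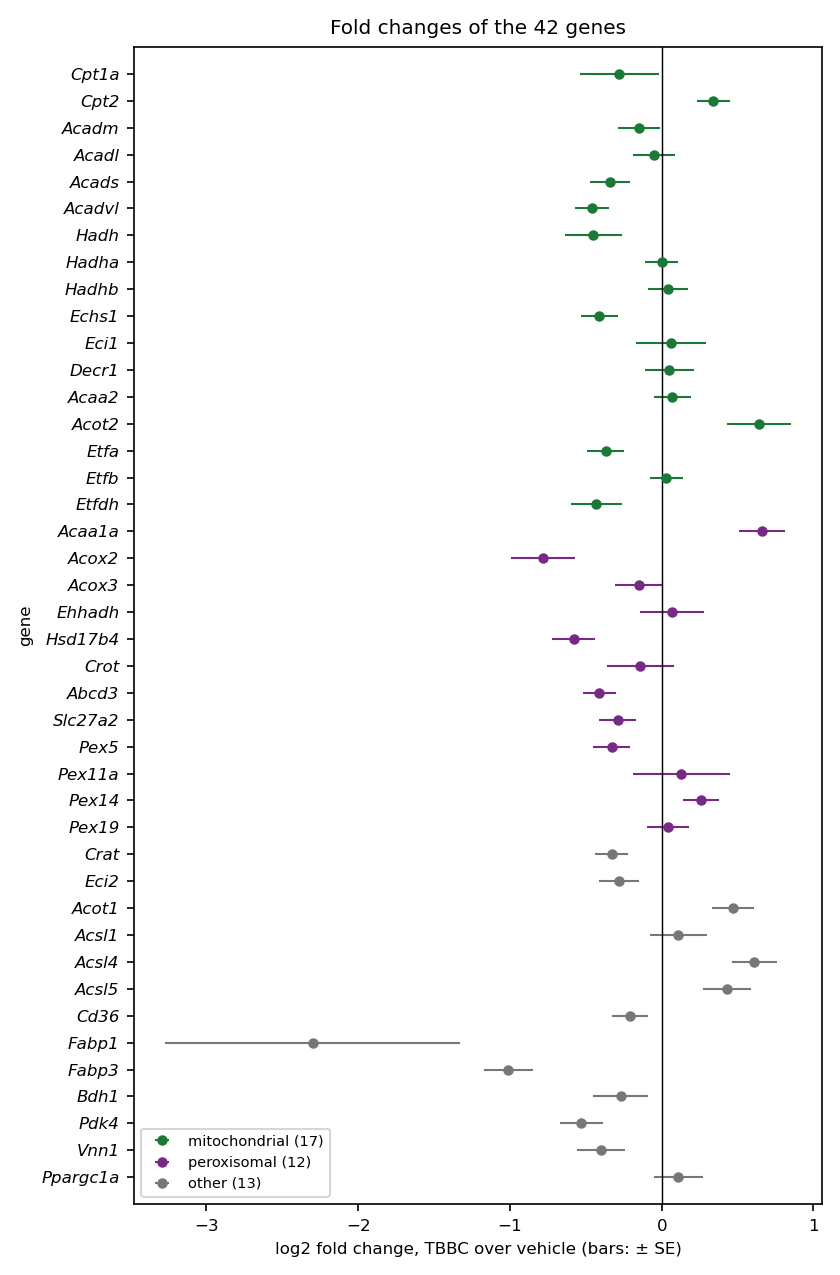
Log2 fold change, TBBC over vehicle (x axis), with its standard error from limma, for each of the 42 genes (y axis), coloured by compartment. Points of both main compartments lie on both sides of 0, and the wide bar is Fabp1, at -2.30 ± 0.97.

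The promoters of the genes were searched for the DR1 element, which PPARs bind together with the retinoid X receptor. It is a direct repeat of the half-site AGGTCA with 1 base between, AGGTCANAGGTCA, searched on both strands in RefSeq windows of 250 bases before and 50 after each gene's start (build GRCr8). No other motif was searched. A window was at hand for 38 of the 42 genes, all but Acaa2, Acadl, Decr1 and Vnn1. No window of the 38 held an exact DR1, and 0.0538% of all 33465 windows did. With at most 2 mismatches outside the spacer it was found in 6 of 38 (15.8%), against 3.77% of all windows, and with at most 1 in 2 of 38 (5.26%), against 0.439%. These 6 stretches are shown because every one of the 6 genes had all 3 TBBC values below all 3 vehicle values by its brightest probe. By the second probe of Fabp1 the groups overlapped. The closest match is in capitals, up to 40 bases stand on either side, none of them past the gene's start, and each sequence reads 5′ to 3′ on the gene's own strand.
Acadvl (chr10:55236706-55236762, minus strand): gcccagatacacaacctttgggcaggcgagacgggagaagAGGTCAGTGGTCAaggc
Fabp1 (chr4:104749223-104749315, plus strand): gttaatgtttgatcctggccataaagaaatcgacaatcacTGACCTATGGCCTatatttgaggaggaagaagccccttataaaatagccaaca
Slc27a2 (chr3:134257985-134258077, plus strand): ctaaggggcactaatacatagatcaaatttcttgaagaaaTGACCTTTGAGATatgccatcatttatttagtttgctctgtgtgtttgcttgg
Echs1 (chr1:204333609-204333701, minus strand): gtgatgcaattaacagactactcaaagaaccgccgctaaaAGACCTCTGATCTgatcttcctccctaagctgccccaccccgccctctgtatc
Etfa (chr8:64788067-64788159, minus strand): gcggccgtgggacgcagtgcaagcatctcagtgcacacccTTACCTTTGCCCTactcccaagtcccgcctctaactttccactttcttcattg
Crat (chr3:34087270-34087349, minus strand): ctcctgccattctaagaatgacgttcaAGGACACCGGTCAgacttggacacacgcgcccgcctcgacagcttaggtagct

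The match in Acadvl begins 17 bases before the start and that in Fabp1 77 bases before it, each with 1 mismatch. The other matches have 2 mismatches and begin 76 (Slc27a2), 155 (Echs1), 154 (Etfa) and 223 bases (Crat) before the start. Among the other 32 genes with a window, 8 had TBBC values wholly below the vehicle values and 7 wholly above. Over all tested named genes, 22.5% of the 316 with at most 2 mismatches had TBBC values wholly below, against 16.5% of the 9714 with more, and 13.3% had them wholly above, against 12.4%. Of the 51 tested named genes with at most 1 mismatch, 35.3% had TBBC values wholly below and 21.6% wholly above. This split by direction was chosen after the values had been seen and is a description. A match is not a binding site, and these arrays do not measure binding.

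Hadha and Hadhb, the subunits of the mitochondrial trifunctional protein, are shown for the opposite reason: they face each other head to head across 1 shared stretch and both had log2 fold changes near 0. Their windows share 200 bases upstream of both starts, with Hadha on the plus strand and Hadhb on the minus strand. The capitals mark the closest DR1 match in the Hadha window, with 3 mismatches, a level of likeness that 24.9% of all windows reach.
Hadha and Hadhb (chr6:31907551-31907750, plus strand): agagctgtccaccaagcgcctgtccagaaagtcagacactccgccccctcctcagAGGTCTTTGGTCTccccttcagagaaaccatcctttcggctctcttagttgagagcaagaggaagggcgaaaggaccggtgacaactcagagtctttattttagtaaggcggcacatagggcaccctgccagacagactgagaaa

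Hadha had a log2 fold change of 0.00 ± 0.11 (SE) and Hadhb of 0.04 ± 0.13. The adjusted p-values (limma) were 0.987 and 0.900. The other 2 Hadha probes gave 0.09 and 0.19.

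The 2 carnitine palmitoyltransferases lay on opposite sides of the vehicle mean. Cpt2, the inner-membrane enzyme that re-forms acyl-CoA in the matrix, had log2 signals of 3.67, 3.78 and 3.82 in TBBC rats 1 to 3, against 3.30, 3.45 and 3.49 in vehicle rats 1 to 3. All TBBC values lay above all vehicle values, with a log2 fold change of 0.34 ± 0.11 (SE) and an adjusted p of 0.167 (limma). Cpt1a, the liver-type enzyme of the outer membrane that controls entry into the shuttle, had log2 signals of 2.93, 3.48 and 2.78 in TBBC rats, against 2.94, 3.41 and 3.69 in vehicle rats. These groups overlapped, with TBBC 2 between vehicle 2 and vehicle 3, and the log2 fold change was -0.28 ± 0.26 (adjusted p = 0.590). It was -0.49 without vehicle 1 or without TBBC 2, -0.11 without vehicle 3 and -0.14 without TBBC 3.

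Among the 12 enzymes of the mitochondrial spiral, 6 lay above and 6 below the vehicle mean, and the median log2 fold change was -0.02. Acadvl, the very-long-chain acyl-CoA dehydrogenase that opens the spiral at the inner membrane, had log2 signals of 4.05, 4.15 and 3.89 in TBBC rats, against 4.45, 4.49 and 4.54 in vehicle rats. The groups did not overlap, and the log2 fold change was -0.46 ± 0.11 (SE), or 72.5% of the vehicle level (adjusted p = 0.109, limma). Its second probe gave -0.44. Echs1, the short-chain enoyl-CoA hydratase of the second step, had log2 signals of 6.48, 6.52 and 6.25 in TBBC rats, against 6.89, 6.79 and 6.79 in vehicle rats. All 3 TBBC values were again the lower ones, at a log2 fold change of -0.41 ± 0.12 (adjusted p = 0.143). TBBC 3 was the lowest array for both genes.

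The other chain-length dehydrogenases also lay below the vehicle mean, by less than Acadvl, and the differences between them were not tested. The log2 fold change was -0.34 for the short-chain enzyme Acads, whose groups did not overlap, -0.15 for the medium-chain Acadm and -0.05 for the long-chain Acadl. Hadh, the hydroxyacyl-CoA dehydrogenase for shorter chains, was at -0.45 by its brightest probe, where TBBC 2 overlapped vehicle 3, and at -0.74 by its other probe. The remaining enzymes stayed near 0: the thiolase Acaa2 was at 0.07, and Eci1 and Decr1, which handle unsaturated fatty acids, were at 0.06 and 0.05. Acot2, the mitochondrial thioesterase that frees fatty acids from CoA, stood apart at 0.64 ± 0.21 (SE), with an adjusted p of 0.177 (limma) and 0.45 by its other probe. Its log2 signals were 4.80, 4.93 and 4.24 in TBBC rats, against 3.81, 4.01 and 4.22 in vehicle rats, so that TBBC 3 lay just above vehicle 3. By the other probe the groups overlapped, since TBBC 3 (-0.51) lay below vehicle 2 (-0.36) and vehicle 3 (-0.16).

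Of the 3 genes that pass electrons from the dehydrogenases to the respiratory chain, 2 lay below the vehicle mean and the third, Etfb, was at 0.03. Etfa, the alpha subunit of the electron transfer flavoprotein, had log2 signals of 2.93, 2.96 and 2.77 in TBBC rats, against 3.29, 3.11 and 3.39 in vehicle rats, with no overlap. Its log2 fold change was -0.37 ± 0.12 (adjusted p = 0.171, limma). Etfdh, the oxidoreductase that takes electrons from the flavoprotein to ubiquinone, had log2 signals of 2.74, 3.10 and 2.64 in TBBC rats, against 3.36, 3.01 and 3.38 in vehicle rats. TBBC 2 lay above vehicle 2, and the log2 fold change was -0.43 ± 0.17 (adjusted p = 0.247). The groups thus lay apart for the alpha subunit and overlapped for the beta subunit, with which it forms a dimer. The difference between the subunits was not tested.

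Among the 6 peroxisomal enzymes, Hsd17b4 and Acox2 lay below vehicle and Acaa1a above, each without overlap. Hsd17b4, the D-bifunctional protein that carries out the middle steps of peroxisomal beta-oxidation, had log2 signals of 5.63, 6.10 and 5.80 in TBBC rats, against 6.35, 6.43 and 6.49 in vehicle rats. Its log2 fold change was -0.58 ± 0.14 (SE), or 66.8% of the vehicle level (adjusted p = 0.116, limma), and its other probe gave -0.68. Acox2, the oxidase for branched chains and bile acid intermediates, was at -0.78 ± 0.21 (adjusted p = 0.130). Acox3, a further branched-chain oxidase, was at -0.15 and Crot, which makes carnitine esters of the shortened chains, at -0.14, both with overlapping groups.

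Ehhadh, the L-bifunctional enzyme that peroxisome proliferators induce in rat liver, showed no such separation. Its log2 signals were 3.18, 3.58 and 3.43 in TBBC rats, against 2.95, 3.68 and 3.35 in vehicle rats. The TBBC values lay inside the vehicle range, and the log2 fold change of 0.07 ± 0.21 (adjusted p = 0.893) turned negative with slide as a term in the fit (-0.15), without vehicle 1 (-0.12) and without TBBC 2 (-0.02). The 2 bifunctional enzymes of the peroxisome therefore gave different values, and the difference between them was not tested.

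Acaa1a, a peroxisomal thiolase of the last step, had log2 signals of 6.78, 7.23 and 6.94 in TBBC rats, against 6.20, 6.46 and 6.31 in vehicle rats. Its log2 fold change was 0.66 ± 0.15 (SE), a 1.58-fold level, with no overlap and an adjusted p of 0.104 (limma). Its probes disagreed, and their mean gave 0.39: a second probe gave 0.66 ± 0.25 and the third, A_43_P11432, gave -0.14 ± 0.11, with log2 signals of 6.25, 6.29 and 6.46 in TBBC rats, against 6.55, 6.48 and 6.39 in vehicle rats. Rats carry a near-identical second gene, Acaa1b, whose 3 probes gave 0.92, 0.74 and 0.76. The second Acaa1a probe, A_44_P516745, and an Acaa1b probe, A_64_P029335, lay within 0.08 of each other on every array, so these 2 cannot be taken as separate readings. Whether probes of 1 gene also read the other was not tested, and the value of Acaa1a is uncertain for that reason.

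**Figure D3:**
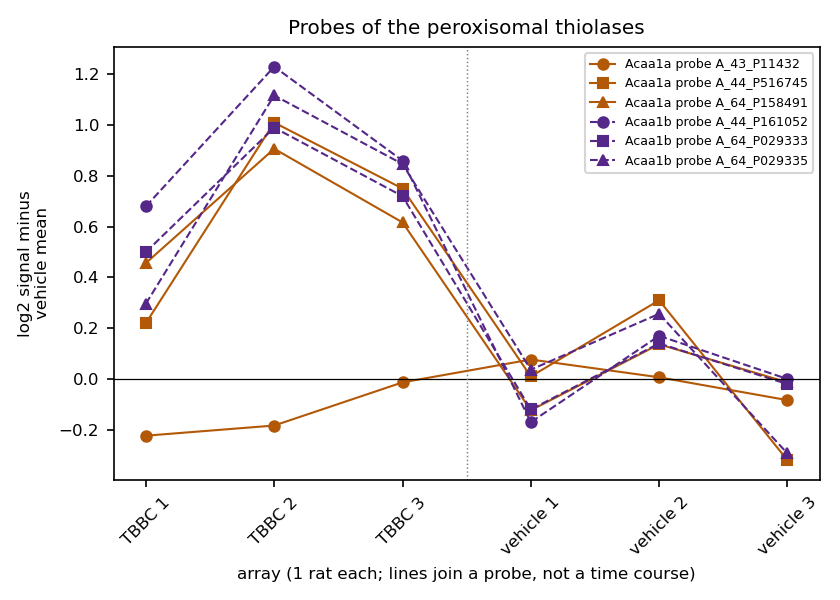
Log2 signal minus each probe's vehicle mean (y axis) for the 3 Acaa1a probes (solid) and the 3 Acaa1b probes (dashed) on the TBBC and vehicle arrays (x axis, 1 rat each). Probes with log2 fold changes from 0.66 to 0.92 run together, and 1 Acaa1a probe, at -0.14, does not.

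Abcd3 and Slc27a2, listed here as peroxisomal membrane proteins apart from the peroxins, lay below all vehicle values in every TBBC rat. Abcd3, the half-transporter also called PMP70 that brings acyl-CoA into the organelle, had log2 signals of 5.67, 5.94 and 5.86 in TBBC rats, against 6.23, 6.21 and 6.26 in vehicle rats. The log2 fold change was -0.41 ± 0.11 (SE; adjusted p = 0.130, limma). Slc27a2, the very-long-chain acyl-CoA synthetase and fatty acid transport protein, had log2 signals of 6.75, 6.77 and 6.49 in TBBC rats, against 6.93, 6.99 and 6.95 in vehicle rats. The log2 fold change was -0.29 ± 0.12 (adjusted p = 0.245), and its other probe gave -0.38. Vehicle rats varied little for both genes, with a standard deviation of 0.03 on the log2 scale.

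The 4 peroxins, which build the organelle and import its enzymes, had a median log2 fold change of 0.08 and went both ways. Pex5, the receptor that carries enzymes with a C-terminal targeting signal, had log2 signals of 2.29, 2.03 and 2.07 in TBBC rats, against 2.46, 2.38 and 2.53 in vehicle rats. Its groups did not overlap at -0.33 ± 0.12 (adjusted p = 0.194, limma), and its other 2 probes gave -0.38 and -0.34. Pex14, the docking protein to which Pex5 binds at the membrane, had log2 signals of 2.50, 2.83 and 2.63 in TBBC rats, against 2.35, 2.42 and 2.41 in vehicle rats. Its groups did not overlap either, in the other direction, at 0.26 ± 0.12 (adjusted p = 0.290), or 0.17 without TBBC 2. The other 2 Pex14 probes gave 0.19 and 0.03, and by the latter the groups overlapped.

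Pex11a, which promotes peroxisome elongation and division, had log2 signals of 5.58, 5.64 and 4.86 in TBBC rats, against 5.49, 4.65 and 5.54 in vehicle rats. TBBC 3 and vehicle 2 were low, each apart from the rest of its group, and the log2 fold change was 0.13 ± 0.32 (adjusted p = 0.855). It was -0.16 without vehicle 2 and -0.01 without TBBC 2. Pex19, the chaperone for newly made peroxisomal membrane proteins, was at 0.04 by its brightest probe, while its other 6 probes ran from -0.65 to 0.14.

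Crat and Eci2 work in both organelles, and both lay below vehicle without overlap. Crat, the carnitine acetyltransferase that buffers acetyl-CoA, had log2 signals of 6.07, 6.20 and 6.07 in TBBC rats, against 6.35, 6.52 and 6.45 in vehicle rats. The log2 fold change was -0.33 ± 0.11 (adjusted p = 0.170, limma) and its other probe gave -0.40. Eci2, an enoyl-CoA isomerase for unsaturated chains, had log2 signals of 4.48, 4.64 and 4.60 in TBBC rats, against 4.66, 4.96 and 4.95 in vehicle rats. The highest TBBC value and the lowest vehicle value were close, and the log2 fold change was -0.28 ± 0.13 (adjusted p = 0.280).

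Thioesters of CoA are made by the acyl-CoA synthetases and cleaved by the thioesterases. The 3 Acsl synthetases of the 42 genes lay above the vehicle mean, while Slc27a2, also a synthetase, lay below. Acsl4, the synthetase that prefers arachidonic acid, had log2 signals of 2.09, 2.05 and 1.67 in TBBC rats, against 1.23, 1.41 and 1.35 in vehicle rats. It had a 1.53-fold level, a log2 fold change of 0.61 ± 0.15 (SE; adjusted p = 0.109, limma), and its other probe gave 0.86. Acsl5, a synthetase of mitochondria and endoplasmic reticulum, had log2 signals of 1.15, 1.00 and 1.53 in TBBC rats, against 0.82, 0.83 and 0.75 in vehicle rats. Its log2 fold change was 0.43 ± 0.16 (adjusted p = 0.206), with TBBC 3 the highest array, and 0.27 without that array. The groups overlapped for Acsl1, the main long-chain synthetase of oxidative tissues, at 0.11 ± 0.19, with its other 3 probes between -0.05 and 0.20.

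Acot1, the cytosolic thioesterase closely related to Acot2, had log2 signals of 5.65, 5.61 and 5.80 in TBBC rats, against 5.02, 5.20 and 5.42 in vehicle rats. All TBBC values lay above all vehicle values, at a log2 fold change of 0.47 ± 0.14 (adjusted p = 0.146, limma). Other thioesterases, among the further genes of the pathways, lay below the vehicle mean: the log2 fold change was -0.46 for Acot3, -0.31 for Acot9, -0.28 for Acot8, -0.21 for Acot13 and -0.12 for Acot4, with no overlap for Acot9 and Acot4. Among the synthetases there, Acsm1 was at 0.56 and Acsm2 at -0.47, both without overlap, and Acsl3 was at -0.05. These genes were picked after their values had been seen. The 7 genes wholly above vehicle, each by its brightest probe, were Acot1, Acot2, Acsl4, Acsl5, Cpt2, Acaa1a and Pex14. Acot1 and Acot2 are similar in sequence, and whether their probes read each other's transcript was not tested.

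All 3 genes of uptake and intracellular binding among the 42 lay below the vehicle mean. Further genes of this role went both ways. The log2 fold change was 0.48 for Slc27a1, without overlap, and 0.07 for Slc27a4, both fatty acid transport proteins. It was -0.91 for Fabp4, with overlap, and -0.74 for Fabp5. Fabp3, the heart-type fatty acid binding protein, had log2 signals of 3.72, 4.22 and 3.90 in TBBC rats, against 4.89, 5.12 and 4.86 in vehicle rats. Even the highest TBBC rat lay clearly under the lowest vehicle rat. The log2 fold change was -1.01 ± 0.16 (SE), or 49.7% of the vehicle level, with an adjusted p of 0.0609, the smallest among the 42 genes in limma. This is the gene nearest to the threshold: across the 21 alternative settings its log2 fold change ran from -1.23 to -0.90 and its adjusted p from 0.0255 to 0.241, past the threshold in 2.

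Fabp1, the liver-type fatty acid binding protein, had log2 signals of -4.13, -4.51 and -4.57 in TBBC rats, against 0.13, -3.98 and -2.48 in vehicle rats. The vehicle rats differed widely among themselves, with vehicle 1 far above the others. The log2 fold change was -2.30 ± 0.97 (adjusted p = 0.258, limma) and -1.18 without vehicle 1. Its second probe, at -1.43 ± 0.69, had overlapping groups, since vehicle 2 (-4.22) lay below TBBC 1 (-4.16). Cd36, the scavenger receptor that takes up long-chain fatty acids, had log2 signals of 2.25, 1.99 and 2.02 in TBBC rats, against 2.23, 2.25 and 2.41 in vehicle rats. Here TBBC 1 lay within the vehicle range, at a log2 fold change of -0.21 ± 0.12 (adjusted p = 0.382).

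Pdk4, the kinase that shuts pyruvate dehydrogenase and so spares glucose when fat is burnt, had log2 signals of -2.30, -2.15 and -2.48 in TBBC rats, against -1.83, -1.92 and -1.59 in vehicle rats. The groups did not overlap, at a log2 fold change of -0.53 ± 0.14 (SE; adjusted p = 0.130, limma), or -0.32 with normexp background correction. Bdh1, the mitochondrial hydroxybutyrate dehydrogenase, had log2 signals of 0.68, 0.50 and 0.25 in TBBC rats, against 0.47, 0.77 and 0.99 in vehicle rats. These overlapped, at -0.27 ± 0.18 (adjusted p = 0.465), and at -0.14 without vehicle 3 and -0.15 without TBBC 3.

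Vnn1, a pantetheinase of CoA turnover that is a PPAR-alpha target in mouse liver, had log2 signals of 4.17, 4.16 and 4.40 in TBBC rats, against 4.34, 4.80 and 4.79 in vehicle rats. Only TBBC 3 and vehicle 1 crossed, and the log2 fold change was -0.40 ± 0.16 (adjusted p = 0.253, limma). Ppargc1a, the coactivator PGC-1alpha that drives mitochondrial gene expression, had log2 signals of -1.0, -0.65 and -0.44 in TBBC rats, against -0.82, -0.77 and -0.85 in vehicle rats. The vehicle rats lay close together and inside the wider TBBC range, at 0.11 ± 0.16 (adjusted p = 0.739), and this value was -0.19 with slide as a term in the fit. Of 8 genes named as classical PPAR-alpha targets (Cpt1a, Acaa1a, Ehhadh, Pdk4, Vnn1, Pex11a, Acot1 and Fabp1), 4 lay above and 4 below the vehicle mean. Over all transcripts 53.5% lay below it. Of the 4 above, Ehhadh and Pex11a changed sign in some alternative fits, and the probes of Acaa1a disagreed. Of the 4 below, Cpt1a and Vnn1 had overlapping groups, as did Fabp1 by its second probe. Without vehicle 1, the log2 fold change of Fabp1 was -1.18.

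**Figure D4:**
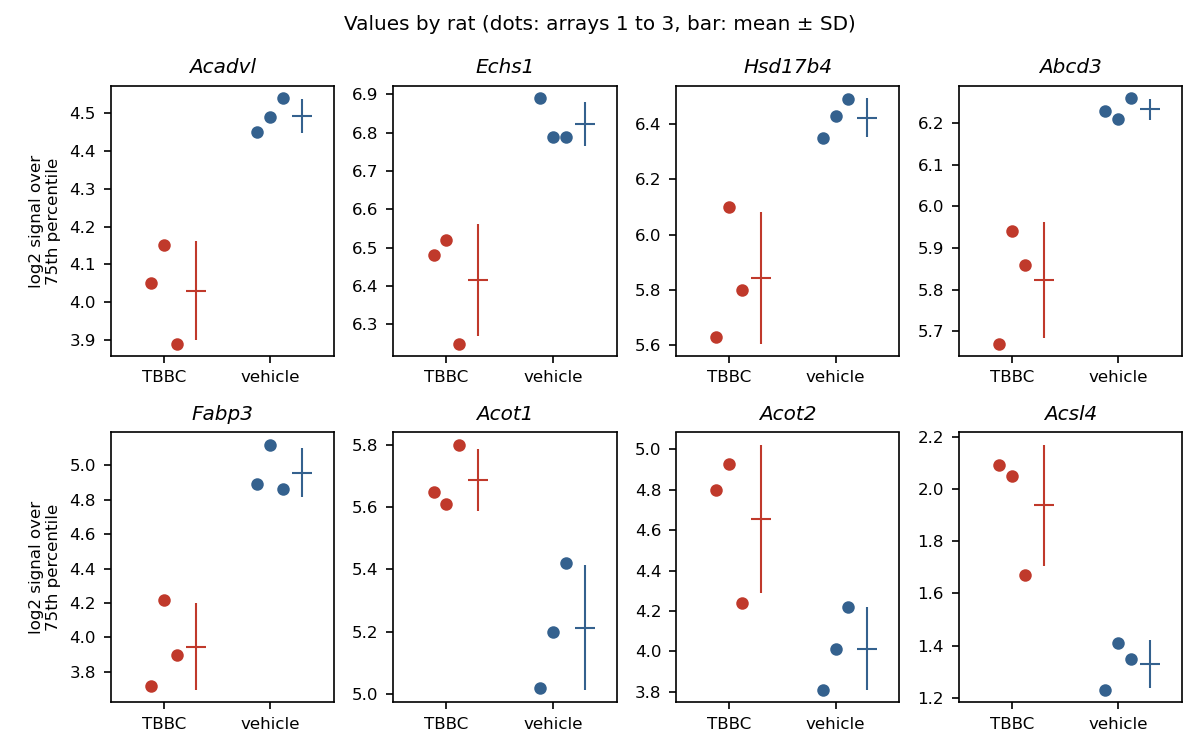
Log2 signal (y axis, a separate scale in each panel) of 8 genes in the TBBC rats (red) and the vehicle rats (blue), with dots for rats 1 to 3 and a bar for the mean ± SD (n = 3 each). The genes were picked after their values had been seen: in every panel the groups do not overlap, with Acadvl, Echs1, Hsd17b4, Abcd3 and Fabp3 lower and Acot1, Acot2 and Acsl4 higher in TBBC.

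Set against each other, the mitochondrial and the peroxisomal genes had medians close together. The 17 mitochondrial genes had a median log2 fold change of -0.05 and the 12 peroxisomal genes of -0.15, a difference of 0.09. By array, the mitochondrial median relative to the vehicle mean was -0.29, 0.07 and -0.13 in TBBC rats, against -0.05, 0.00 and 0.06 in vehicle rats. The peroxisomal median was -0.19, -0.07 and -0.29 in TBBC rats, against -0.02, 0.02 and 0.03 in vehicle rats. The difference of the medians was -0.11 in TBBC 1, 0.14 in TBBC 2 and 0.16 in TBBC 3, so that it lay on both sides of 0, with a standard deviation of 0.15 over the TBBC rats. The difference of 0.09 moved with the choice of genes: it was 0.17 without the 4 peroxins, where the peroxisomal median was -0.22, 0.16 with Crat and Eci2 counted as peroxisomal and 0.00 with them counted as mitochondrial. It was -0.04 with normexp background correction. Within slide 1, where TBBC 1 is the only TBBC array, it was -0.11.

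The TBBC values lay wholly above vehicle for 2 of the 17 mitochondrial genes and wholly below for 4, or 35.3% in either direction, which is near the 28.3% of all transcripts. Among the 12 peroxisomal genes the counts were 2 and 5, or 58.3%. Among further genes of the same pathways the order was reversed. The groups did not overlap for 11 of 19 mitochondrial genes (57.9%) and 14 of 35 peroxisomal genes (40.0%). Over all transcripts 13.1% lay wholly above and 15.2% wholly below.

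**Figure D5:**
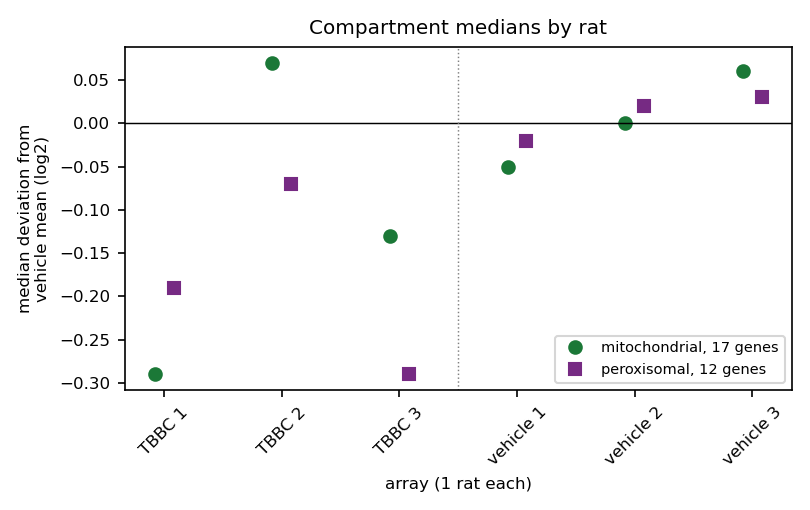
Median deviation from the vehicle mean on the log2 scale (y axis) of the 17 mitochondrial genes (circles) and the 12 peroxisomal genes (squares) on each TBBC and vehicle array (x axis, 1 rat each). The 2 medians differ by -0.11, 0.14 and 0.16 in TBBC rats 1 to 3, and by at most 0.03 in either direction in vehicle rats.

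The TBBC rats were not alike. TBBC 2 was the highest TBBC array for 26 of the 42 genes (61.9%), against 30.2% of all transcripts, and for 13 of the 17 mitochondrial genes. Vehicle 1 was the lowest vehicle array for 23 of the 42 (54.8%), against 33.3% of all transcripts. The median deviation of the 42 genes from the vehicle mean was -0.24, 0.01 and -0.23 in TBBC rats 1 to 3, while over all transcripts it was -0.02, -0.05 and -0.01. With slide as a fixed term the fit rests on slide 1, and it gave the same log2 fold changes as slide 1 alone. Of the 26 genes given above by array, apart from Acot2, 24 kept their sign there, among them Fabp3 (-1.23), Hsd17b4 (-0.79), Acsl4 (0.76), Acadvl (-0.45), Acaa1a (0.45) and Acot1 (0.44). Their lowest adjusted p was 0.154 in that fit, 0.0749 with a random slide block and 0.0850 on slide 1 alone. The sizes of Pex5 (-0.17), Pex14 (0.11), Bdh1 (-0.06), Cd36 (-0.05) and Pex11a (0.35) moved by more than 1.5 times.

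Among 80 further genes of the same pathways, 72 were tested and 1 passed the threshold, against 0.531% of all transcripts in either direction and 0.276% lower. Ppard, the PPAR-delta receptor, fell to log2 signals of -2.65, -2.41 and -2.64 in TBBC rats, against -0.85, -1.05 and -1.16 in vehicle rats. Its log2 fold change was -1.55 ± 0.13 (SE), or 34.1% of the vehicle level (adjusted p = 0.0180, limma), and its other 2 probes gave -1.54 and -1.10. The call held in 15 of 21 alternative settings and was lost with a fixed slide term (adjusted p = 0.101), on slide 1 alone (0.0750), with a replicate block (0.108) and without vehicle 1, 2 or 3 (0.101, 0.142 and 0.0851). In those 6 fits the log2 fold change stayed between -1.63 and -1.47.

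Over all transcripts 53.5% lay below the vehicle mean, and of 18 tested genes of lipid handling and its regulators, 12 lay below it (66.7%) and 6 above. Angptl4, a lipase inhibitor and PPAR target, had log2 signals of 5.15, 5.22 and 4.93 in TBBC rats, against 4.43, 4.28 and 4.15 in vehicle rats (log2 fold change 0.81 ± 0.13; adjusted p = 0.0641, limma). Fabp5, the epidermal-type fatty acid binding protein, had 2.31, 2.12 and 2.23 in TBBC rats, against 2.80, 2.91 and 3.19 in vehicle rats (-0.74 ± 0.14; adjusted p = 0.0756). The groups did not overlap for 5 of the 18 (27.8%), near the 28.3% of all transcripts. Among them were Angptl4 and Fabp5, which were taken for their small p. Fabp5 lay on the same side as Fabp1 and Fabp3.

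Of 35 other peroxisomal genes tested, 27 lay below (77.1%) and 8 above the vehicle mean, with a median log2 fold change of -0.15, the same as that of the 12 peroxisomal genes described above. Pipox, the peroxisomal sarcosine and pipecolic acid oxidase, had log2 signals of -2.18, -2.50 and -2.55 in TBBC rats, against -1.28, -0.67 and -1.45 in vehicle rats (log2 fold change -1.28 ± 0.23; adjusted p = 0.0742, limma). Hao2, a peroxisomal hydroxyacid oxidase abundant in rat kidney, had 6.89, 6.24 and 6.09 in TBBC rats, against 7.66, 7.37 and 7.68 in vehicle rats (-1.16 ± 0.23; adjusted p = 0.0842). Acaa1b, the second thiolase gene, had 7.58, 8.13 and 7.76 in TBBC rats, against 6.73, 7.07 and 6.90 in vehicle rats (0.92 ± 0.18; adjusted p = 0.0797). The groups did not overlap for 14 of the 35 (40.0%), against 28.3% of all transcripts. Among them were Pipox, Hao2 and Acaa1b, which were taken for their small p. Both oxidases lay lower while the thiolase lay higher. Hao2 was at -0.68 with a fixed slide term and on slide 1 alone. It passed the threshold without TBBC 1 (-1.41, adjusted p = 0.0401) and with trended, robust eBayes (adjusted p = 0.0427), within a range of 0.0401 to 0.279 over the alternatives. Pipox, Acaa1b, Angptl4 and Fabp5 also passed in 2 of the 21 alternatives each.

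Of 19 other mitochondrial genes tested, 15 lay below (78.9%) and 4 above the vehicle mean, with a median log2 fold change of -0.21. Oxct1, which activates ketone bodies for use as fuel, had log2 signals of 5.66, 5.72 and 5.41 in TBBC rats, against 6.26, 6.00 and 6.01 in vehicle rats (log2 fold change -0.49 ± 0.14; adjusted p = 0.136, limma). Acsm2, a medium-chain acyl-CoA synthetase of kidney and liver, had 6.93, 7.37 and 7.31 in TBBC rats, against 7.69, 7.70 and 7.64 in vehicle rats (-0.47 ± 0.14; adjusted p = 0.155), and was at -0.74 on slide 1 alone. Both, taken for their small p, had every TBBC value below every vehicle value, as did 10 of the 19 genes in all. Over all transcripts 15.2% did so.

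Markers of kidney cell types lay off the vehicle mean as well, none past the threshold. Of 8 proximal tubule markers, 7 lay below the vehicle mean, and their summed signal was 877 to 1040 in TBBC rats, against 1120 to 1200 in vehicle rats (in units of the array's 75th percentile). These sums did not overlap between the groups, and all 8 markers were well above background. A sum weighs the brightest probes most. Taken singly, 3 of the 8 lay wholly below vehicle, while Cubn (log2 fold change -0.11) and Slc5a2 (-0.02) lay close to the vehicle mean. Slc13a1 lay wholly above vehicle, at 0.52. Of 5 distal nephron markers, 4 lay below, with sums of 244 to 416 in TBBC rats, against 458 to 553 in vehicle rats. Of 5 tested endothelial markers, 4 lay below (24.8 to 27.7, against 30.0 to 34.6), and all 4 podocyte markers did (18.9 to 27.6, against 26.9 to 30.4). Of 8 myeloid markers, 7 lay above the vehicle mean, with sums of 27.9 to 63.1 in TBBC rats, highest in TBBC 3, against 21.7 to 33.1 in vehicle rats. Adipocyte markers summed to 1.05 to 3.08 in TBBC rats, highest in TBBC 3, against 1.06 to 1.46 in vehicle rats. Leptin (Lep) was not well above background. Only 2 of the 5 adipocyte markers were tested, and they went opposite ways. The log2 fold change was 1.32 for Cfd, which was high in TBBC 3 alone, and -0.18 for Adipoq. Muscle markers summed to 0.566 to 0.701 in TBBC rats, against 0.604 to 0.638 in vehicle rats. The part of these marker differences, and of the slides, in the values of the 42 genes was not tested.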

How the data were processed

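The authors deposited an intensity per spot for each array, read by Agilent Feature Extraction (10.7 per the submitters' processing notes, and more exactly 10.7.1.1 per the file headers). They are background-subtracted and carry no scaling between arrays. The authors' deposited value table gives a linear ratio, the same signal over a number near the array's 75th percentile.

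Of 62976 spots, 1439 controls were left out. Accessions were matched to a RefSeq table (GRCr8), which left 33344 of 61537 probes unnamed. The log2 of the signal over the array's 75th percentile was used, and spots flagged as outliers (0 to 9 per array) were dropped. The filter on dim probes kept those well above background on all unflagged arrays of 1 group or both, given at least 2 unflagged arrays per group. It left 41992 probes, or 32962 transcripts, of which 12292 are named genes represented by their brightest probe. The test was two-sided, from lmFit and eBayes of limma 3.58.1 (R 4.3.3), with Benjamini-Hochberg adjustment and a threshold of 0.05. Errors of fold changes are its standard errors. The method was tested on simulated data.

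The 42 genes, the further gene lists, the marker lists and the naming rule (in each role the 2 smallest p, plus a set of PPAR-linked genes, Cd36 and Ppargc1a, and, in each further list, genes past the threshold and the 3 smallest p) were chosen with earlier results of these data known. Same-numbered rats did not deviate together (correlations of -0.09, 0.03 and -0.07), and replicate numbers were not used to pair them, except in the replicate block. With 3 rats per group, these correlations cannot exclude a pairing. Alternatives were other scalings, normexp with an offset of 50, the authors' table, other filters, probe summaries and variance models, a slide term (fixed, or random with statmod 1.5.0), slide 1 alone, a replicate block and each array left out. A planned search of protein sequences for peroxisomal targeting signals was not run. A further gene that the naming rule takes is not reported here.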

Additional observations from a re-analysis of the deposited data

How the results depend on the processing

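The count of the 42 genes past the threshold was 0 under all but 2 alternatives: it was 1 with normexp background correction (Fabp3, adjusted p = 0.0352, limma) and 3 with trended, robust eBayes (Fabp3 0.0255, Acadvl 0.0483 and Acaa1a 0.0486). The replicate block left it at 0. Of the 26 genes given by array under the naming rule, 23 kept their direction in all 21 alternatives. The exceptions were Ehhadh (-0.15 with slide as a fixed term and on slide 1 alone, -0.12 without vehicle 1, -0.02 without TBBC 2, and up to 0.25 with another array left out), Pex11a (-0.16 without vehicle 2, -0.01 without TBBC 2, up to 0.38) and Ppargc1a (-0.19 with slide as a fixed term and on slide 1 alone, -0.01 without TBBC 3, up to 0.26). With slide as a fixed term or on slide 1 alone, the mitochondrial median was -0.29 and the difference of mitochondrial minus peroxisomal medians was -0.11. With each array left out in turn, the mitochondrial median ran from -0.17 to -0.02, the peroxisomal median from -0.22 to 0.00 (without TBBC 1) and their difference from -0.06 (without TBBC 1) to 0.14. Both fits on the slide rest on 1 TBBC array, assumed to vary like the others. A limit of 1 mismatch in place of 2 left 2 of 6 promoters with a DR1 match.

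The count of calls over all transcripts, 175 in the table used here, was 764 with normexp, 1087 with trended, robust eBayes, 52 with no filter on dim probes, 48 (43 higher, 5 lower) with slide as a fixed term, 64 (59 higher, 5 lower) on slide 1 alone, 0 with the replicate block, and 6 to 263 with 1 array left out (11, 6 and 18 without vehicle 1, 2 and 3, and 263, 57 and 258 without TBBC 1, 2 and 3). The split of higher to lower was 427 to 337 with normexp and 169 to 89 without TBBC 3, against 84 to 91. The cause was not tested.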

Other observations

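The genes below were chosen after their values had been seen. Agps, which makes the ether bond of ether lipids in the peroxisome, had log2 signals by its brightest probe of 5.05, 2.59 and 2.42 in TBBC rats 1 to 3, against 2.31, 2.15 and 5.14 in vehicle rats 1 to 3, so that 1 rat of each group stood apart. Its other 2 probes spread less: they ran from -2.54 to -1.77 in TBBC rats, against -2.83 to -1.99 in vehicle rats. Acsm3, a medium-chain acyl-CoA synthetase, had 3.46, 2.46 and 4.13 in TBBC rats, against 4.10, 2.48 and 2.21 in vehicle rats.

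Lpl, the lipoprotein lipase that frees fatty acids for uptake, had log2 signals of -0.53, 0.49 and 0.62 in TBBC rats, against -0.26, -0.43 and -0.18 in vehicle rats, with TBBC 2 and TBBC 3, both on slide 2, above and TBBC 1 below. Its other probe had -2.36, -1.46 and -1.26 in TBBC rats, against -2.34, -2.56 and -2.22 in vehicle rats. Cfd, an adipocyte marker, had 1.04 in TBBC 3, against values of -2.33 and -2.59 in TBBC 1 and TBBC 2 and of -2.78, -2.47 and -2.58 in vehicle rats. Adipoq, another adipocyte marker, did not stand apart in TBBC 3. It had -0.26, -0.08 and -0.07 in TBBC rats, against 0.35, -0.02 and -0.21 in vehicle rats.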
